A study of Mus musculus with 18 samples.

Results

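The 8 genes described here are transcripts of blood vessel endothelium: Kdr, Calcrl, Ramp2, Cdh5, Cldn5, Tmem100, Egfl7 and Emp2. They were picked by name out of 22049 genes, and their counts were followed through 18 single-cell libraries of lung, spleen and implanted biomaterial scaffolds. The questions were how far the genes were lost from lung with a tumour and at which day, how high they stood inside the cells that still held them, and whether scaffolds contained them. All 8 passed the filter on low counts, so each was tested.

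Groups were tumour-bearing and healthy female BALB/cJ mice, 3 libraries of each for every tissue, taken at days 7, 14 and 21. Tumour-bearing mice carried 2000000 cells of 4T1-tdTomato-luc2, a mouse mammary carcinoma line with fluorescent and luciferase labels, injected into a mammary fat pad, and healthy mice had been given none. The mice of both groups were 9, 10 and 11 weeks old at the 3 days. The labels do not say when the scaffolds were implanted or how many animals a library pooled, so p-values measure the spread between libraries, which may be technical. The 3 libraries of a group also differed in day and age, and an SD or a test not paired by day includes both in that spread. The libraries were made by Drop-seq, in which droplets pair a cell with a barcoded bead and each captured transcript is counted once as a unique molecular identifier (UMI). A level is given in CPM, the UMIs of a gene per 1000000 UMIs of the library.

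Endothelial cells line blood vessels and hold a barrier between blood and tissue. In lung they form the capillary net around the alveoli, where vascular endothelial growth factor acts through Kdr, adrenomedullin acts through the receptor of Calcrl and Ramp2, and Cdh5 and Cldn5 seal the cell contacts. Tmem100 is a membrane protein of endothelium downstream of ALK1 signalling, Egfl7 is a secreted matrix protein of endothelium, and Emp2 is a membrane protein that lung capillaries share with alveolar type 1 cells.

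The upstream sequences of 3 members are printed because these genes were counted together in the same cells and their windows lie outside the annotated gene. They come from RefSeq on GRCm38.p6, are written 5′ to 3′ on the gene's strand and end next to the annotated gene. Capitals mark the letters GGGCGG or, for the other strand, CCGCCC, known as a GC box. The Kdr window is chr5:75978459-75978705 on the minus strand, that of Emp2 is chr16:10313969-10314218 on the minus strand, and that of Cldn5 is chr16:18776597-18776846 on the plus strand.
Kdr: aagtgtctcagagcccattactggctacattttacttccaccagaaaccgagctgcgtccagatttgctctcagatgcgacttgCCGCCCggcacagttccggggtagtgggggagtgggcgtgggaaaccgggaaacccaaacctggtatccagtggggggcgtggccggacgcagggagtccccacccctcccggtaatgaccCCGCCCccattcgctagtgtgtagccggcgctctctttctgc
Emp2: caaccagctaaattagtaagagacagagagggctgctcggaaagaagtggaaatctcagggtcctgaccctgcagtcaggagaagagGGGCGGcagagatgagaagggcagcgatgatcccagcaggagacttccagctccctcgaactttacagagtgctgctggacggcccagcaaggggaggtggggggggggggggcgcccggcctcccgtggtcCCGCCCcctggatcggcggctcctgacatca
Cldn5: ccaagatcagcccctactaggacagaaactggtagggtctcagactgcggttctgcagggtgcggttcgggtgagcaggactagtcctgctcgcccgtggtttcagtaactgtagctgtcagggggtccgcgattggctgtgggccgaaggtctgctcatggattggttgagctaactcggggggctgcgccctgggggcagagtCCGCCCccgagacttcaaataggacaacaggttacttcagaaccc

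Windows of 250 upstream bases were at hand for 5 members, 7 windows in all because Egfl7 has several start sites. GC box letters stood in 5 of the 7 windows, 1 for each of Kdr, Emp2, Cldn5, Calcrl and Egfl7, and in 32.7% of the 32851 windows of that length in the table. The letters TATAAA on either strand were in none of the 7 windows and in 12.4% of the table. The letters CAGGAAG on either strand, a form of the ETS factor motif, were in 3 of the 7 windows and in 10.8% of the table, and these matches belonged to Calcrl and Egfl7. The motifs were chosen after the sequences were seen, and a match is a description of letters. The matches in Calcrl and in 1 Egfl7 window are printed with their neighbours, at chr2:84425318-84425342 on the minus strand and at chr2:26583775-26583799 on the plus strand, with CAGGAAG in capitals.
Calcrl: gtgatgtaaCAGGAAGctgtgatgt
Egfl7: gaacacacaCAGGAAGtccggcggg

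Library quality bears on every value below. The tables held 26397 barcodes, of which 24536 with 200 or more genes and under 20% mitochondrial UMIs were kept as cells. Lung libraries had 753 to 3387 kept cells and 611206 to 4262801 kept UMIs. At day 21, 1046 of 7545 distinct barcodes occurred in 2 or more libraries. Each such barcode was also assigned to 1 library, if its UMIs there were 5 times those in any other, and dropped elsewhere. Under that rule 77.2% of the kept barcodes of healthy lung and 94.7% of those of healthy spleen were dropped. The share of neutrophil-type cells differed between the groups: cells with 2% or more of their UMIs from the neutrophil transcripts S100a8 and S100a9 made up 40.1%, 63.7% and 65.3% of tumour-bearing lung cells at days 7, 14 and 21, against 7.30%, 6.65% and 4.08% of healthy lung cells.

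In summed lung libraries, Kdr, Calcrl, Tmem100 and Emp2 fell with the tumour, and the other 4 members had negative fold changes that did not pass the test. In the libraries as deposited, healthy lung at day 14 stood above every other library for all 8 genes. Without that day none of the 8 was called, with 2 of 11833 genes called lower in all, and without the day block none was called, with 65 of 11158 genes called lower. With shared barcodes given to 1 library, an alternative chosen after seeing the data, Calcrl, Tmem100 and Emp2 were still called without day 14 (edgeR adjusted p = 0.0287, 0.0113 and 0.0127), where 1.1% of 11532 genes were called lower. In such sums, fewer cells of a type, less RNA per cell and a larger share of other cells, such as the neutrophil-type cells above, cannot be told apart. The test was edgeR's quasi-likelihood test in a single model of all 18 libraries with the day as a block, and calls are Benjamini-Hochberg adjusted p-values under 0.05 over 11158 genes. Fold changes are log2, tumour-bearing over healthy, with their standard error.

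Of the receptors, Kdr, the main signalling receptor for vascular endothelial growth factor, had 0.849, 13.0 and 0.938 CPM in tumour-bearing lung at days 7, 14 and 21, against 7.32, 90.4 and 6.54 CPM in healthy lung. Its level was lower with the tumour at each of the 3 days, although the tumour-bearing library of day 14 lay above the healthy libraries of days 7 and 21. These values stand on few molecules, 1, 16 and 4 UMIs in tumour-bearing lung and 7, 104 and 4 UMIs in healthy lung. Kdr fell by 2.49 ± 0.524 (edgeR adjusted p = 0.0130).

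Calcrl, the G protein-coupled part of the adrenomedullin receptor, had 15.3, 43.9 and 12.0 CPM in tumour-bearing lung at days 7, 14 and 21, against 28.2, 212 and 44.2 CPM in healthy lung. It was lower at each day, and tumour-bearing day 14 overlapped the healthy range. The log2 fold change was -1.47 ± 0.340 (edgeR adjusted p = 0.0186). Ramp2, the accessory protein that makes Calcrl an adrenomedullin receptor, had 2.55, 8.95 and 11.0 CPM in tumour-bearing lung, against 4.18, 93.9 and 3.27 CPM in healthy lung. The Ramp2 groups overlapped, with the tumour-bearing library above the healthy one at day 21, and the change of -0.99 ± 0.783 was not called (edgeR adjusted p = 0.414). That day 21 order depended on shared barcodes: with each given to a single library, Ramp2 had 12.6 CPM in tumour-bearing lung and 17.6 CPM in healthy lung, the healthy value from 2 UMIs.

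Of the junction genes, Cdh5, the cadherin of endothelial contacts, had 4.25, 17.1 and 8.45 CPM in tumour-bearing lung, against 0, 128 and 18.0 CPM in healthy lung. Cldn5, the main claudin of endothelial tight junctions, had 6.79, 22.0 and 10.8 CPM in tumour-bearing lung, against 5.23, 182 and 14.7 CPM in healthy lung. Both were higher with the tumour at day 7, on 5 and 8 UMIs in tumour-bearing lung against 0 and 5 UMIs in healthy lung, and lower at days 14 and 21. Their changes of -1.17 ± 0.700 for Cdh5 and -1.12 ± 0.629 for Cldn5 were not called (edgeR adjusted p = 0.282 and 0.267).

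Tmem100 had 2.55, 17.9 and 14.3 CPM in tumour-bearing lung, against 3.14, 216 and 58.9 CPM in healthy lung, and fell by 2.23 ± 0.489 (edgeR adjusted p = 0.0163). Day 7 rested on 3 UMIs in each library, so the difference came from days 14 and 21. Egfl7 had 11.0, 13.8 and 11.3 CPM in tumour-bearing lung, against 8.36, 92.2 and 16.4 CPM in healthy lung, and its change of -0.86 ± 0.675 was not called (edgeR adjusted p = 0.411). The tumour-bearing values of Egfl7 were nearly level over the 3 days, and the healthy ones were not. Emp2 had 8.49, 13.8 and 5.16 CPM in tumour-bearing lung, against 16.7, 176 and 52.4 CPM in healthy lung. All 3 tumour-bearing values of Emp2 lay below the lowest healthy value. Emp2 fell by 2.57 ± 0.480, with the smallest adjusted p of the members (edgeR adjusted p = 0.00615).

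**Figure D1:**
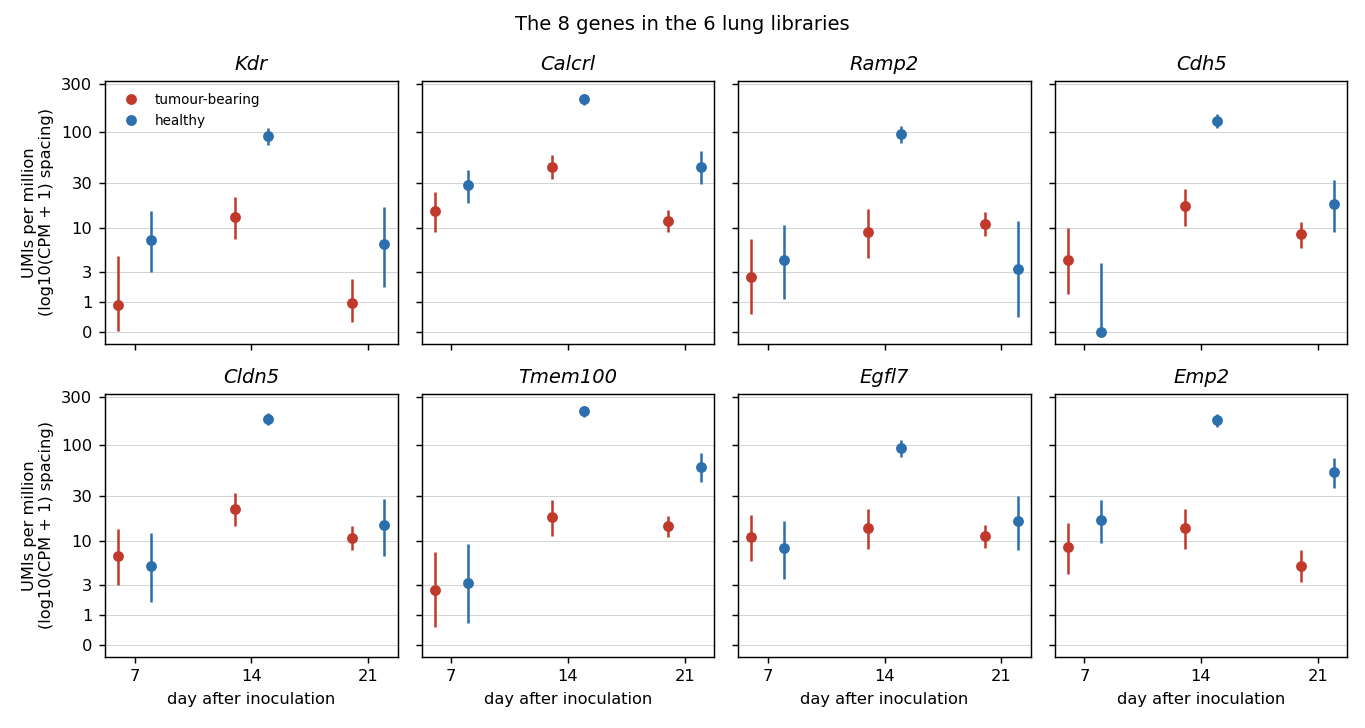
Level in CPM (axis spaced as log10 of CPM + 1) of each gene in the 6 lung libraries, by day, with tumour-bearing lung in red and healthy lung in blue; each point is 1 library and each line its exact 95% Poisson interval, which covers counting error only. At day 14 healthy lung stood between 90.4 CPM (Kdr) and 216 CPM (Tmem100), above the other 5 lung libraries for every gene as deposited.

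Of the 8 members 4 were called lower and 8 of 8 were lower, with a median of -1.32. Of all 11158 genes 2.91% were called lower and 59.4% were lower, with a median of -0.22. At day 14 alone, the tumour-bearing level was between 0.0787 times (Emp2, 95% interval 0.0450 to 0.129, counting error only) and 0.207 times (Calcrl, 0.151 to 0.279) the healthy level. At day 21 the same ratio was 0.0986 for Emp2 (0.0546 to 0.175), 0.143 for Kdr (0.0267 to 0.770), 0.243 for Tmem100 (0.158 to 0.378) and 0.271 for Calcrl (0.167 to 0.449). For Cdh5, Cldn5 and Egfl7 the day 21 ratios of 0.469, 0.733 and 0.688 had intervals that reached past 1. Ramp2 went the other way at day 21, with a ratio of 3.37 (0.882 to 28.6). These day 21 ratios hold the shared barcodes: with each given to 1 library, Calcrl had 13.4 CPM in tumour-bearing and 228 CPM in healthy lung, Tmem100 had 15.3 CPM in tumour-bearing and 289.7 CPM in healthy lung, and Cldn5 and Egfl7 had 12.3 and 12.9 CPM in tumour-bearing lung against 79.0 CPM each in healthy lung. On that count healthy day 21 lay above healthy day 14 for Calcrl and Tmem100, from 26 and 33 UMIs. With 1 library per status and day, a single day has no replicate test.

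Without day 14 the median of the members was -0.28, 4 of 8 were lower, and Ramp2, Cdh5, Cldn5 and Egfl7 turned to 1.15, 0.50, 0.40 and 0.37, none of them called, while the median without the day block was -2.00. Kdr was at -2.33 (edgeR adjusted p = 0.277) and Emp2 at -1.82 (edgeR adjusted p = 0.167) from the remaining days. Without day 21 only Kdr was called (edgeR adjusted p = 0.0456), where 0.169% of 10645 genes were called lower. Without day 7 the same 4 genes were called as with all days, where 1.83% of 11769 genes were called lower. Leaving out the cells rich in S100a8 and S100a9 left 7 members testable, with a median of -0.43, and Emp2 alone was called (-2.06, edgeR adjusted p = 0.0400), the 1 gene of 10330 called lower in lung under that setting. A tumour effect that grew or shrank in proportion to time was called for none of the 8 (3 of 11158 genes, 0.0269%; all 3 lower), and 0 of the 8 had an unadjusted p under 0.05; DESeq2 was not run on it.

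The mitochondrial filter took out more of the members than of other transcripts in lung. Barcodes with 20% or more mitochondrial UMIs held 51.6%, 28.8% and 2.78% of the members' UMIs in tumour-bearing lung at days 7, 14 and 21, against 53.0%, 24.6% and 12.1% in healthy lung. The same barcodes held 11.8%, 10.4% and 0.485% of all UMIs in tumour-bearing lung, against 15.7%, 18.9% and 1.90% in healthy lung. With all deposited barcodes 3 members were called lower, where 1.78% of 11438 genes were. Kdr, at -1.53, was not called (edgeR adjusted p = 0.0936).

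Cells that held at least 2 of the 8 genes were rarer in tumour-bearing lung at each day, but the spread between healthy libraries was as large as the difference. They were 5 of 977 cells (0.512%), 10 of 956 (1.05%) and 12 of 3387 (0.354%) in tumour-bearing lung at days 7, 14 and 21. In healthy lung they were 7 of 753 cells (0.930%), 80 of 1113 (7.19%) and 19 of 1029 (1.85%). Tumour-bearing lung at day 14 lay above healthy lung at day 7, so the groups overlapped. The mean was 0.637 ± 0.363% in tumour-bearing lung and 3.32 ± 3.38% in healthy lung (SD, n = 3 each). The exact 2-sided permutation p was 0.2, where 0.1 is the smallest that 3 against 3 libraries allow. This test and the later permutation tests did not pair the libraries by day. Thinned to 300 UMIs per cell, the shares were 0.106%, 0.641% and 0.282% in tumour-bearing lung, against 0.288%, 4.25% and 1.73% in healthy lung. With shared barcodes given to 1 library they were 0.538%, 1.07% and 0.510% in tumour-bearing lung, against 1.19%, 7.48% and 7.66% in healthy lung, the last from 18 of 235 cells. The difference was then -4.74 percentage points, against -2.68 as deposited, and the groups did not overlap, the highest tumour-bearing share being 1.07% and the lowest healthy one 1.19% (exact 2-sided permutation p = 0.1, the smallest possible).

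**Figure D2:**
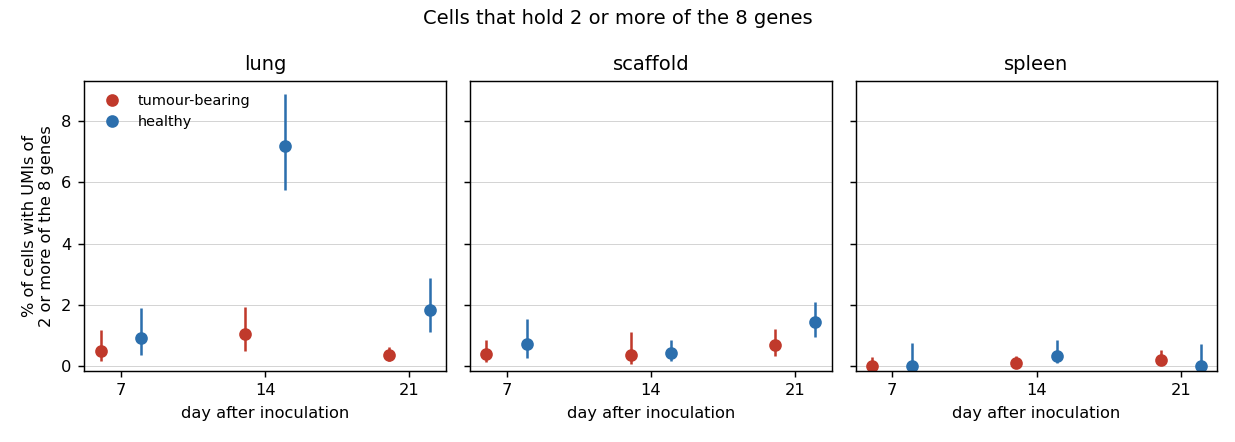
Percent of kept cells with UMIs of 2 or more of the 8 genes by day in lung, scaffold and spleen, with tumour-bearing mice in red and healthy mice in blue; each point is 1 library and each line its exact 95% binomial interval. Healthy lung at day 14 reached 7.19%, and the other 17 libraries stayed at or under 1.85% as deposited; healthy lung at day 21 was at 7.66% with shared barcodes given to 1 library.

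Part of the lung cells with a member held several of the 8 genes. Exactly 1 of them was seen in 311 lung cells and 2 or more in 133, of which 80 were from healthy lung at day 14. Of the 133 cells, 51 held exactly 2 and 16 held all 8. The shares that follow are over all 6 lung libraries. Of the 64 lung cells with a Ramp2 UMI 70.3% also held Calcrl, its receptor partner, and 71.9% also held Cdh5. Of the 181 lung cells with Calcrl, 24.9% held Ramp2. Of the 158 lung cells with Emp2, 20.3% held Kdr and 32.9% held Tmem100.

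A clustering of all cells made without the 8 genes gave 1 endothelial-like cluster, and 2 of its subclusters carried 12 and 11 of 12 endothelial markers. The same 2 subclusters also carried 3 and 5 alveolar type 1 markers. Type 1 markers made up 0.130% and 0.327% of their UMIs, against 0.645% and 0.638% for endothelial markers. These endothelial-like subclusters held 1, 7 and 13 cells in tumour-bearing lung at days 7, 14 and 21, against 0, 64 and 17 cells in healthy lung. As a share of cells outside the neutrophil-like clusters this was 0.165%, 1.71% and 1.05% in tumour-bearing lung, against 0%, 6.11% and 1.66% in healthy lung. These are descriptions, because markers that define the cluster differed between the groups. The 0 of 753 cells in healthy lung at day 7 allows a share of up to 0.398%. The 12 endothelial markers, each detected in tumour-bearing lung at every day, summed to 103, 146 and 73.7 CPM there, against 164, 552 and 123 CPM in healthy lung, where Emcn was at 0 at days 7 and 21, Tie1 at day 7 and Vwf at day 21.

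Summed over the 6 lung libraries, the endothelial-like subclusters, 102 of 8215 cells, held between 62.5% (Emp2) and 90.3% (Ramp2) of each member's UMIs. Of the 102 cells 64 came from healthy lung at day 14, and healthy lung at day 7 had 0. In tumour-bearing lung the subclusters held 0 of 10, 6 of 17 and 10 of 22 Emp2 UMIs at days 7, 14 and 21. In healthy lung they held 0 of 16, 154 of 202 and 17 of 32. A Calcrl UMI was seen in 73.5% of the 102 cells, Cldn5 and Tmem100 in 66.7% each, Cdh5 in 61.8% and Emp2 in 60.8%. Egfl7 was seen in 57.8%, Ramp2 in 48.0% and Kdr in 32.4%. Neutrophil-like lung cells showed the members in 0.0940% (Ramp2) to 0.438% (Emp2) of 3193 cells. Their median depth was 1024 UMIs, against 687 UMIs in the endothelial-like cells. They made up 38.1%, 57.1% and 63.5% of tumour-bearing lung cells at days 7, 14 and 21, against 7.30%, 5.84% and 0.389% in healthy lung. Coming mostly from tumour-bearing lung, they give no level of free RNA for healthy lung, where most endothelial-like cells were. Calcrl was also in 4.46% of lung B-like cells and 3.93% of lung T-like cells, with 0.188% in neutrophil-like cells, at median depths of 677.5, 837 and 1024 UMIs. Tmem100 had 28 UMIs in 13 of 82 lung fibroblast-like cells (15.9%, median 452 UMIs), against 0.125% of neutrophil-like cells. At day 21 the rule for shared barcodes dropped 33 of 34 fibroblast-like cells of tumour-bearing lung and 23 of 24 of healthy lung. These libraries held 5 and 3 of the 13 cells with Tmem100.

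**Figure D3:**
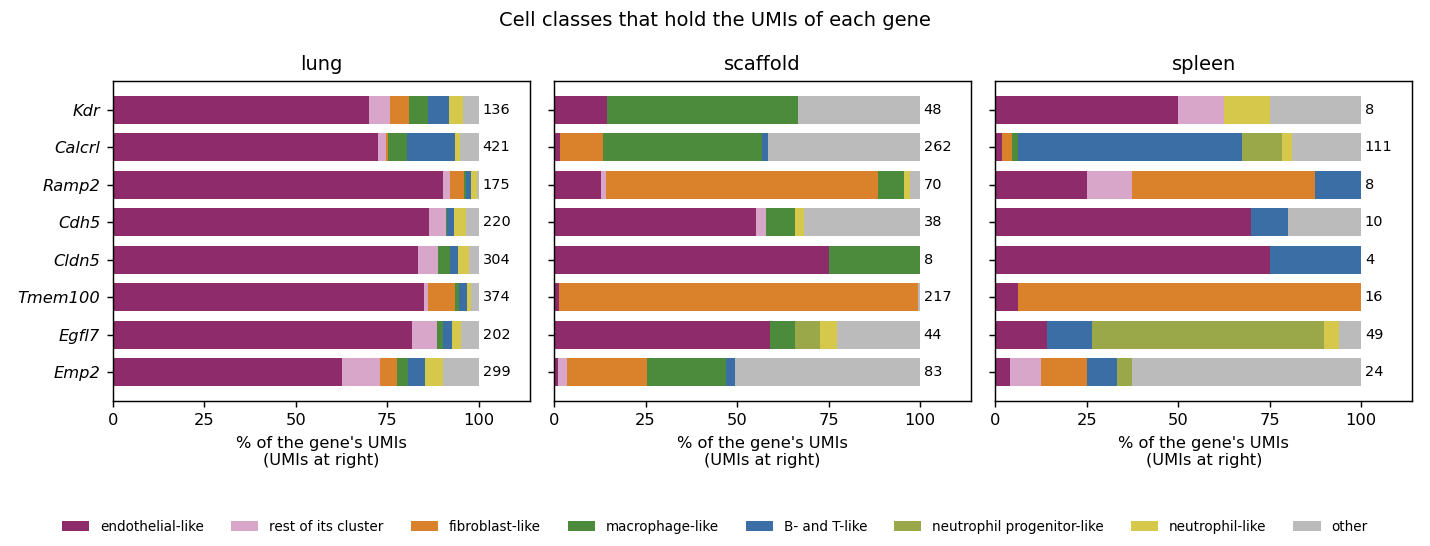
Percent of the UMIs of each gene held by each cell class in lung, scaffold and spleen, summed over the 6 libraries of a tissue, with the gene's UMIs at the right end of its bar. In the lung sums the endothelial-like cells held most of every gene, with 64 of these cells from healthy lung at day 14. In scaffold fibroblast-like cells held 98.2% of Tmem100 and 74.3% of Ramp2.

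Inside the lung cells that held them, the members had no common direction. For each gene the cells were those with UMIs of at least 2 of the other 7 members, so that the gene itself did not select them, and the level is its UMIs per 10000 UMIs of those cells. Kdr had 0, 3.22 and 1.16 per 10000 in tumour-bearing lung at days 7, 14 and 21, against 2.57, 6.40 and 0.943 in healthy lung. Calcrl had 2.18, 16.9 and 26.9 per 10000 in tumour-bearing lung, against 0.696, 15.2 and 18.6 in healthy lung. Kdr was thus lower at days 7 and 14, and Calcrl was higher at each day, with overlap between the groups for both. For Calcrl the interval of the tumour-bearing over healthy ratio, counting error only, included equal levels at each day. It ran from 0.163 to 185 at day 7, from 0.767 to 1.56 at day 14 and from 0.813 to 2.71 at day 21. The Kdr interval included equal levels too, at 0.222 to 1.00 at day 14 and 0.0639 to 72.4 at day 21.

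Ramp2 had 1.09, 3.34 and 25.4 per 10000 in tumour-bearing lung, against 0.842, 7.03 and 1.81 in healthy lung. Its day 21 level was 14.0 times the healthy one (95% interval 3.66 to 119, counting error only), from 12 tumour-bearing and 19 healthy cells. Cldn5 and Egfl7 shared that order at day 21, with ratios of 3.62 (1.61 to 9.59) and 2.89 (1.39 to 6.73). At day 14 both were lower with the tumour, Cldn5 at 0.513 times (0.310 to 0.809) and Egfl7 at 0.771 times (0.414 to 1.34) the healthy level. Tmem100 had 1.26, 4.27 and 31.8 per 10000 in tumour-bearing lung, against 0.365, 17.0 and 28.8 in healthy lung, a ratio of 0.251 (0.119 to 0.471) at day 14 and of 1.10 (0.698 to 1.77) at day 21.

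Emp2 had 2.52, 5.49 and 4.63 per 10000 in tumour-bearing lung, against 0, 13.1 and 14.7 in healthy lung. It was lower at days 14 and 21, the latest with a ratio of 0.315 (0.116 to 0.792), and the groups overlapped because healthy day 7 was at 0. Cdh5 had 5.02, 7.81 and 18.5 per 10000 in tumour-bearing lung, against 0, 10.0 and 10.7 in healthy lung. In the exact 2-sided permutation test of 3 against 3 libraries, which cannot go below 0.1, p ran between 0.4 and 1 (Benjamini-Hochberg adjusted over the 8, 0.8 to 1). Epithelial transcripts were in many of the cells: 44 of the 80 healthy day 14 cells with 2 or more members held 2 or more epithelial UMIs. Without such cells Egfl7 averaged 35.7 ± 36.7 per 10000 in tumour-bearing lung and 2.25 ± 2.01 in healthy lung (SD). Ramp2 averaged 12.5 ± 9.23 in tumour-bearing lung and 0.247 ± 0.427 in healthy lung. The unadjusted exact 2-sided permutation p was 0.1 for both, from 9 and 11 tumour-bearing cells. By the same test p was 0.3 for Cdh5, 0.5 for Calcrl and 0.9 for Tmem100 and Emp2. Kdr and Cldn5 had 2 healthy libraries left and were not tested. Day 7 rested on 3 to 7 cells per library, and at day 21 the median depth of cells with 2 or more members was 897 UMIs in tumour-bearing lung and 419 UMIs in healthy lung.

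**Figure D4:**
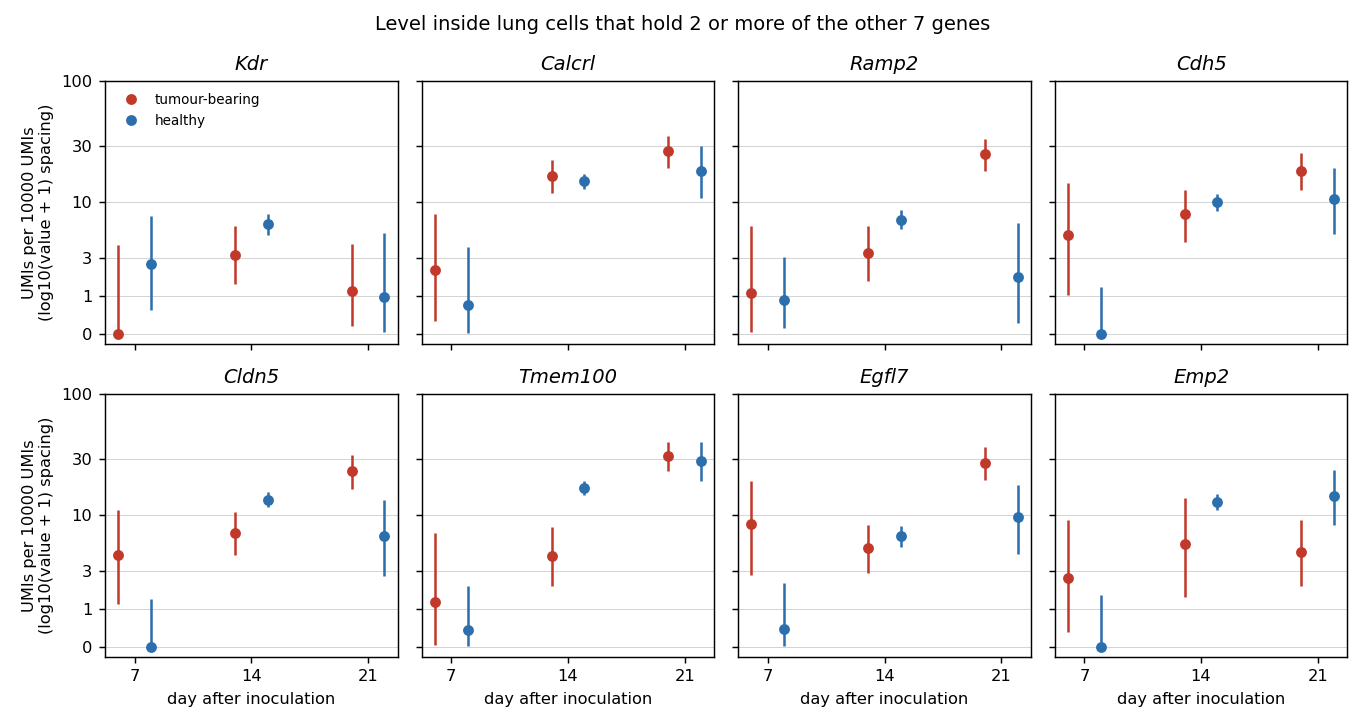
UMIs of each gene per 10000 UMIs (axis spaced as log10 of value + 1) inside lung cells that held 2 or more of the other 7 genes, by day, with tumour-bearing lung in red and healthy lung in blue; points are libraries and lines exact 95% Poisson intervals. Ramp2, Cldn5 and Egfl7 stood higher in tumour-bearing lung at day 21 and Emp2 lower, at 4.63 against 14.7 per 10000.

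Other transcripts of the lung cells with 2 or more members were tested in the same way on the 6 lung libraries, and 3 of 272 genes passed (1.1%), all higher with the tumour. They were 1100001G20Rik at 5.68 ± 1.00, S100a9, a neutrophil calprotectin subunit, at 5.42 ± 1.08, and BC100530 at 5.68 ± 1.22 (edgeR adjusted p = 0.0254, 0.0358 and 0.0475). The share of S100a8- and S100a9-rich cells given above moved the same way, and its part in these 3 genes was not tested. Of 18 genes of the vascular and lung lists that could be tested in these cells, none was called and 2 had an unadjusted p under 0.05, namely Lyve1 at 2.66 ± 1.00 and Ptprb at 2.21 ± 0.844 (edgeR adjusted p = 0.743 for both). DESeq2 was not run on these cells.

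In scaffolds all 8 genes were detected, at low levels, and none was called between tumour-bearing and healthy mice. Scaffold calls were few over all genes as well (0.161% of 11158). The unadjusted p was under 0.05 for Tmem100 alone among the members, and DESeq2 called 0 members too. Tmem100 had 0, 9.37 and 8.37 CPM in tumour-bearing scaffold at days 7, 14 and 21, against 0.424, 18.8 and 38.3 CPM in healthy scaffold. It was lower with the tumour at each day, with overlap between days, and the change was -1.53 ± 0.506 (edgeR adjusted p = 0.634).

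Egfl7 had 1.17, 6.06 and 4.03 CPM in tumour-bearing scaffold, against 0.848, 0 and 3.86 CPM in healthy scaffold. It was higher at each day but on 0 to 13 UMIs per library, and its change of 1.30 ± 0.847 was not called (edgeR adjusted p = 1). Cldn5 was seen in 2 scaffold libraries, with 6 UMIs in tumour-bearing and 2 UMIs in healthy scaffold at day 14. The other 4 had no Cldn5 UMI, which in tumour-bearing scaffold at day 7 allows up to 0.196% of 1529 cells with a detected UMI and sets no limit on cells that express the gene. Kdr lay between 1.86 and 3.86 CPM in tumour-bearing scaffold and between 3.05 and 3.81 CPM in healthy scaffold, and Calcrl between 8.68 and 16.8 CPM in tumour-bearing and between 14.0 and 22.9 CPM in healthy scaffold.

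**Figure D5:**
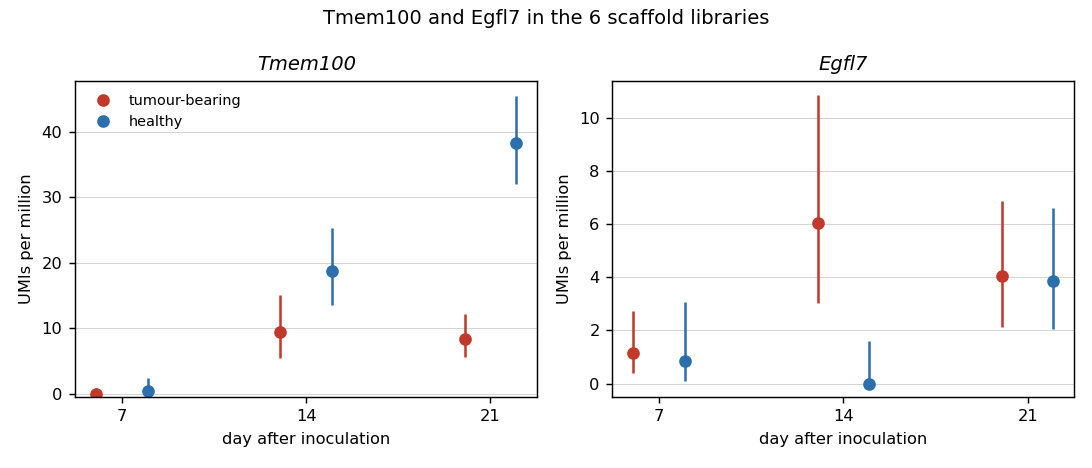
Level in CPM of Tmem100 and Egfl7 in the 6 scaffold libraries by day, with tumour-bearing mice in red and healthy mice in blue; points are libraries and lines exact 95% Poisson intervals. Tmem100 reached 38.3 CPM in healthy scaffold at day 21 against 8.37 CPM in tumour-bearing scaffold, while Egfl7 stayed at or under 6.06 CPM.

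The cells that carried the genes in scaffold differed from those in lung. Endothelial-like cells numbered 0, 2 and 4 in tumour-bearing scaffold at days 7, 14 and 21, against 1, 0 and 3 in healthy scaffold. These 10 cells held 59.1% of the scaffold UMIs of Egfl7 and 55.3% of those of Cdh5, but 1.38% of those of Tmem100. Fibroblast-like cells held 213 of the 217 Tmem100 UMIs, seen in 40.5% of 185 cells, and 52 of the 70 Ramp2 UMIs, seen in 21.6% of them. Of the 60 scaffold cells with 2 or more members 36 were fibroblast-like, 10 macrophage-like and 7 endothelial-like.

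Fibroblast-like cells numbered 4, 7 and 49 in tumour-bearing scaffold, against 5, 54 and 66 in healthy scaffold. At day 21 the rule for shared barcodes dropped 18 of the 49 and none of the 66. A barcode that this rule keeps in a library can still be shared. Inside them Tmem100 stood at 0, 7.42 and 2.83 per 10000 UMIs in tumour-bearing scaffold, against 0.872, 5.26 and 5.83 in healthy scaffold. The 8 fibroblast markers summed to 655, 358 and 972 CPM in tumour-bearing scaffold, against 337, 1052 and 2267 CPM in healthy scaffold, and their part in the Tmem100 values was not tested. Calcrl in scaffold was spread over macrophage-like cells with 113 of its 262 UMIs, in 4.85% of 2020 cells at a median depth of 2383 UMIs, and other classes. None of 856 neutrophil-like scaffold cells, at a median of 1002 UMIs, held a UMI of it, which allows a share of up to 0.350%. Shares of scaffold cells with 2 or more members were 0.392%, 0.381% and 0.681% in tumour-bearing mice, against 0.713%, 0.420% and 1.45% in healthy mice (exact 2-sided permutation p = 0.2), and after thinning to 300 UMIs none passed 0.116%.

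Spleen held few of the transcripts, between 14 and 62 UMIs of all 8 genes per library. Emp2 was called lower there (-3.17 ± 0.765, edgeR adjusted p = 0.0378), 1 of 8 members where 0.52% of all genes were called lower. The call stood on 1, 0 and 8 UMIs in tumour-bearing spleen against 2, 4 and 9 UMIs in healthy spleen. It was lost without day 14, without day 21 and once shared barcodes were given to 1 library, and an unnamed cluster mostly of shared barcodes held 14 of the 24 Emp2 UMIs. Egfl7 in spleen had 31 of its 49 UMIs in neutrophil progenitor-like cells, in 3.41% of 881 cells at a median depth of 2970 UMIs. Of neutrophil-like spleen cells, at a median of 814 UMIs, 0.112% showed Egfl7.

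Between healthy tissues, all 8 genes were higher in healthy lung than in healthy scaffold in the model over the 3 days, and 7 were called, Ramp2 being the exception (2.29 ± 0.765, edgeR adjusted p = 0.0881), where 3.74% of all genes were called higher. Against healthy spleen 5 of 8 were called higher (0.986% of all genes), namely Kdr, Calcrl, Cldn5, Tmem100 and Emp2. Between healthy scaffold and healthy spleen none of the 8 was called (16.1% of all genes in either direction), and 2 had an unadjusted p under 0.05; DESeq2 was not run on these contrasts. The order did not hold in every library: Ramp2 had 3.27 CPM in healthy lung at day 21 and 10.4 CPM in healthy scaffold, and Cdh5 had 0 CPM in healthy lung at day 7 and 1.70 CPM in healthy scaffold. Without day 14, 0 of 8 were called against either tissue, where 6 of 11833 genes were called against scaffold and 0 against spleen. With shared barcodes given to 1 library 8 of 8 were called against each, where 11.8% and 5.13% of all genes were called in either direction.

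The tumour effect in lung minus that in scaffold was negative for all 8 genes, where 59.4% of all genes were negative. None of the 8 was called (0% of 11158 genes). Kdr at -2.08 ± 0.726 and Calcrl at -1.22 ± 0.473 had unadjusted p-values under 0.05 (edgeR adjusted p = 0.485 for both). Without day 14 the difference was positive for 5 of 8.

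Genes of the same pathways and of neighbouring cell types were read from lists of 147 genes that are no members, 85 of which were tested in lung. Of these 71 were lower, 10 were called lower and 1 was called higher, against 59.4%, 2.91% and 6.16% of all genes. None of the 11 calls remained without day 14, where 42 of 11833 genes were called in either direction, or without S100a8- and S100a9-rich cells, where 18 of 10330 were. DESeq2 kept 8 of the 11. Of 21 other endothelial genes 20 were lower, with a median of -1.02, and the sodium channel gene Scn7a was called (-1.67 ± 0.391, edgeR adjusted p = 0.0241). Scn7a had 12.7, 30.9 and 4.69 CPM in tumour-bearing lung, against 28.2, 172 and 19.6 CPM in healthy lung.

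Among capillary genes, Car4, a carbonic anhydrase of the capillary cells called aerocytes, had 42.5, 19.5 and 7.27 CPM in tumour-bearing lung, against 72.1, 180.0 and 39.3 CPM in healthy lung (-1.84 ± 0.501, edgeR adjusted p = 0.0396), 1 of 3 aerocyte genes tested. Endothelial-like cells held 38.0% of the Car4 UMIs in lung and alveolar macrophage-like cells 51.9%. Of 7 general capillary genes the lipase Lpl was called lower (-1.65 ± 0.445, edgeR adjusted p = 0.0367). Endothelial-like cells held 0.528% of its lung UMIs and alveolar macrophage-like cells 48.4%. The 7 alveolar macrophage markers summed to 671, 207 and 655 CPM in tumour-bearing lung, with Krt79 at 0 at day 14, against 1149.8, 1630.2 and 664 CPM in healthy lung, and their part in Car4 and Lpl was not tested. Of 5 genes of vascular endothelial growth factor signalling all were lower and none was called. The co-receptor Nrp1 was at -1.13 ± 0.344 and the ligand Vegfa at -1.58 ± 0.530 (edgeR adjusted p = 0.0549 and 0.0737). Of the adrenomedullin genes, Ramp1 was at -1.09 ± 0.372 and the ligand Adm at -2.46 ± 1.29, neither of them called.

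Of 13 further junction genes all were lower and 2 were called, the epithelial claudin Cldn7 at -2.47 ± 0.637 and the scaffold protein gene Tjp1 at -1.81 ± 0.488 (edgeR adjusted p = 0.0327 and 0.0366). Cldn7 had 0, 0.813 and 14.5 CPM in tumour-bearing lung, against 6.27, 2.61 and 86.7 CPM in healthy lung, so its weight lay on the healthy library of day 21 with the shared barcodes, and Cldn7 was not called once these were given to 1 library. No gene of the ALK1 and BMP list was called among 10. Of 5 Notch genes Notch1 was called higher (1.44 ± 0.372, edgeR adjusted p = 0.0307), at 72.2, 48.8 and 58.6 CPM in tumour-bearing lung, against 29.3, 36.5 and 14.7 CPM in healthy lung. Its call too was lost once shared barcodes were given to 1 library.

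Genes of other lung cells moved beside the members. Of 12 alveolar type 1 genes 11 were lower and Akap5 and Cav1 were called lower, and of 7 alveolar type 2 and club genes Sftpc, a surfactant protein, and Scgb1a1, a club cell secretoglobin, were called lower. DESeq2 did not call Cav1, Sftpc or Scgb1a1. Sftpc had 9.34, 6.51 and 0.235 CPM in tumour-bearing lung, against 23.0, 440 and 700.3 CPM in healthy lung. Of 4 pericyte and smooth muscle genes all were lower and Postn was called lower. The part of these other cell types in the values of Emp2, which type 1 cells also make, was not tested.

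The genes whose pattern over the 18 libraries was most like the mean of the 8 were Stmn2, Clec14a, Clic5, Tek, Tbx3, Gpr116, Sdpr, Gucy1a3, Fgf1 and Tspan7. Their Pearson r of log2 CPM ran from 0.891 to 0.927, a description in which the libraries share depth and preparation. Each of the 10 was highest in healthy lung at day 14, from 26.1 CPM for Tek to 293 CPM for Sdpr. Among the members, r with the mean of the other 7 ran from 0.718 for Calcrl to 0.910 for Cldn5. In healthy lung, the transcripts most enriched in cells with 2 or more members over other cells were Myct1, Gpihbp1, Fmo1, Stmn2 and Ecscr, at 116 to 128 times the CPM.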

How the data were processed

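Drop-seq libraries of lung, spleen and scaffold were analysed from tables of raw UMI counts per gene and barcode, deposited by the authors as 1 table per library; mm10 as genome build and Seurat version 2 are named per the submitters' processing notes. For the aligner, barcode repair and cell calling, the entry is: not given in the sources used here. A gene without a row in a table was taken as 0. The members and the gene lists were chosen with earlier results of these data known.

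Counts were summed over kept cells and tested with edgeR 4.0.16 (R 4.3.3; TMM factors, filterByExpr). The model combined tissue-by-day terms with 1 tumour effect in each tissue, 6 residual degrees of freedom in all, and the biological coefficient of variation was 0.315. Tumour-bearing and healthy libraries were paired by the day in the labels, and same-day libraries deviated together from their group means in every tissue (r across genes from 0.185 to 0.625). Shared barcodes were left in for this, and r was highest at day 21 in spleen (0.625) and lung (0.540). The part of shared barcodes in these r values was not tested. On counts simulated for lung over 10972 genes, the test recovered 84% of genes changed by -3 and 42% of those changed by -1.5 (log2), with 10 false calls. The changed genes were drawn from the better counted ones and all genes were given the same spread. These figures therefore cannot be carried over to members with few UMIs. DESeq2 1.42.0 was an alternative.

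Cells were clustered with scanpy 1.11.5 and Leiden (leidenalg 0.10.2, resolution 1) on 2000 variable genes without the 8 members. Clusters were named from marker lists, 3 markers at 1.5 times the level of other cells being needed. No doublets were removed. Intervals are exact 95% binomial or Poisson intervals and cover counting error only; a count of 0 allows up to 3 counts. Genes named are those called in a list, or else its 2 of smallest p, the 10 of most similar pattern and the 10 most enriched in cells with 2 or more members. Alternatives changed the scaling, filters, barcodes, cells, days, block and tool.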

Additional observations from a re-analysis of the deposited data

How the results depend on the processing

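Of the 4 members called lower in lung, 4 stayed called under the other scalings, without the low-count filter, in DESeq2, with merged barcodes and with shared barcodes given to 1 library, and 3 with all deposited barcodes. Of all genes, 1.78% to 8.36% were called lower in these settings, the highest share with library totals. No replicate block left 0, lung fitted alone 2 of 7 tested (Kdr did not pass the low-count filter there), cells of 400 or more genes 2, no S100a8- and S100a9-rich cells 1, and leaving out a day 0 to 4. Of all genes, 0.583%, 1.25%, 0.843% and 0.00968% were called lower in these settings in turn, and 0.0169% to 1.83% without a day. With shared barcodes given to 1 library and without replicate 2, chosen after seeing the data, 3 of 8 were called and 8 of 8 were lower. There 1.1% of all genes were called lower. With all deposited barcodes and without replicate 2, a setting chosen after seeing the data, 0 were called, and Ramp2, Cldn5 and Egfl7 stood at 0.96, 0.37 and 0.14. Leaving out a day put Ramp2 between -2.34 and 1.15, Cdh5 between -1.66 and 0.50, Cldn5 between -1.67 and 0.40 and Egfl7 between -1.29 and 0.37. Scaling by library totals put the median of all genes in lung at -0.49, against -0.22 in the reported fit. In these cases the cause was not tested.

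In scaffold 0 were called throughout, where 0% to 0.877% of all genes were called in either direction. The spleen call of 1 was at 0 without the block, with shared barcodes given to 1 library, in cells of 400 or more genes, without S100a8- and S100a9-rich cells and, without day 14, with all barcodes or with shared barcodes given to 1 library, and between 0 and 1 without a day. Without a day, healthy lung gave 0 to 7 calls against healthy scaffold, where 0.0507% to 12.1% of all genes were called in either direction. Against healthy spleen it gave 0 to 6 (0% to 4.49% of all genes). With shared barcodes given to 1 library each gave 8 (11.8% and 5.13%). Healthy scaffold against spleen gave 0 to 1 (0.194% to 26.9%).

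The share of cells with 2 or more members stayed lower in tumour-bearing lung and scaffold in all 11 alternatives of each; the lung difference of -2.68 percentage points was -4.74 with shared barcodes given to 1 library and -0.955 without day 14. In spleen it changed sign without S100a8- and S100a9-rich cells (0.121 percentage points) and with barcodes merged (0.0261), and ran from -0.114 to 0.105 without a day. Inside levels, tumour-bearing minus healthy per 10000, changed sign for Kdr with 3 or more other members (0.533) and without cells with 2 or more epithelial UMIs (3.33), and for Calcrl with 1 or more other members (-0.362). For Egfl7 the difference of 8.20 was 33.4 without cells with epithelial UMIs and 15.4 with 3 or more other members. Without a day they ran from -1.72 to 11.9 for Ramp2, from -1.15 to 10.8 for Cldn5 and from -5.93 to 1.93 for Tmem100. Few UMIs per library limit these values.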
